A study of Mus musculus with 53 samples.

Results

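IL-4 acts on macrophages mainly through STAT6, and the response that remained in macrophages lacking this factor is described here. The members are 16 of the 53 samples: the 8 samples labelled Stat6KO with IL4 and the 8 labelled Stat6KO ctrl, at 1, 3, 6 and 24 h, taken by their labels and joined into 8 pairs by time and replicate number. Bone marrow cells of C57BL/6 mice aged 8 to 12 weeks were differentiated for 6 days into bone marrow-derived macrophages (BMDMs) in medium conditioned by L929 cells, a source of M-CSF. The Stat6-/- animals were full-body knockouts from The Jackson Laboratory, so every cell type of the marrow lacked functional STAT6, and the WT animals shared their background. IL-4 was given at 20 ng/ml, and time-matched controls received none. Each Stat6-/- group held 2 replicates, so that the 8 pairs came from 2 replicate numbers and 4 times. WT samples, 15 complete pairs of the same design, show where the Stat6-/- response differed.

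The IL-4 receptor binds JAK kinases, which phosphorylate STAT6, and STAT6 dimers then enter the nucleus and bind DNA. The same receptor can also engage IRS2 and PI3K, and in other cells it can activate STAT5 or STAT3. STAT2 carries type I interferon signals, and IRF1, the guanylate-binding proteins and the immunity-related GTPases are classic targets of interferons. SOCS3 and CISH are feedback inhibitors that cytokine receptors induce through STAT factors.

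Transcript levels were given as FPKM (sequenced fragments relative to transcript length and to the total mapped in the library). All differences are on the scale of log2(FPKM + 1), which understates the changes of low genes. The pooled fit (limma with the pair as a block, 7 residual degrees of freedom) covered the 10841 of 23847 loci that reached 1 FPKM in any of the 16 samples, and a call needed a Benjamini-Hochberg adjusted p under 0.05. FPKM sums of the 16 samples were between 410987 and 460904, and 10192 to 10323 loci reached 1 FPKM. Depth relative to the median ranged from 0.704 to 1.5, and 5 of the 8 IL-4 samples were deeper than their controls. Stat6 (chromosome 10, 127642986 to 127660987, mm10) was at 20 ± 2.57 FPKM (SD, n = 18) in all Stat6-/- samples and at 74.2 ± 8.44 FPKM (SD, n = 35) in WT, so transcripts at 26.9% of the WT level remained in the knockout. The ranges did not overlap, at 14.3 to 24 against 58.7 to 90.6 FPKM, and the two-sided permutation p was 2e-05, the smallest that the resamples can give. That p treats all samples as separate units, although they are times and treatments of a few replicate numbers, so it does not measure the spread between animals.

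IL-4 changed few genes in Stat6-/- BMDMs when all times were pooled, and nearly all of them went up. Of 10841 loci tested, 16 rose (0.148%) and 1 fell (0.00922%). All 16 increases were present in 8 of 8 pairs, and they were small, between 0.22 and 0.60 on the log2 scale (1.17-fold to 1.51-fold). With a change of at least 1, 0 loci were called (0%), against 268 (2.47%) in WT. At an unadjusted p under 0.05, 871 loci were higher (8.03%) and 409 lower (3.77%) with IL-4. Before any test, 227 loci (2.09%) were higher and 90 (0.83%) lower in 8 of 8 pairs. The calls rest on the pairing, since without the pair as a block limma called 0 loci, with 85 (0.784%) at an unadjusted p under 0.05. Without replicate 1, 7 loci were called, of which 2 were among the 17 called loci, and without replicate 2, 0 were called. Leaving out a single pair gave from 1 call (the 3 h pair of replicate 1, or the 6 h pair of replicate 2) to 28 (the 24 h pair of replicate 1). Of the 17, these single-pair fits kept from 1 to 15.

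**Figure D1:**
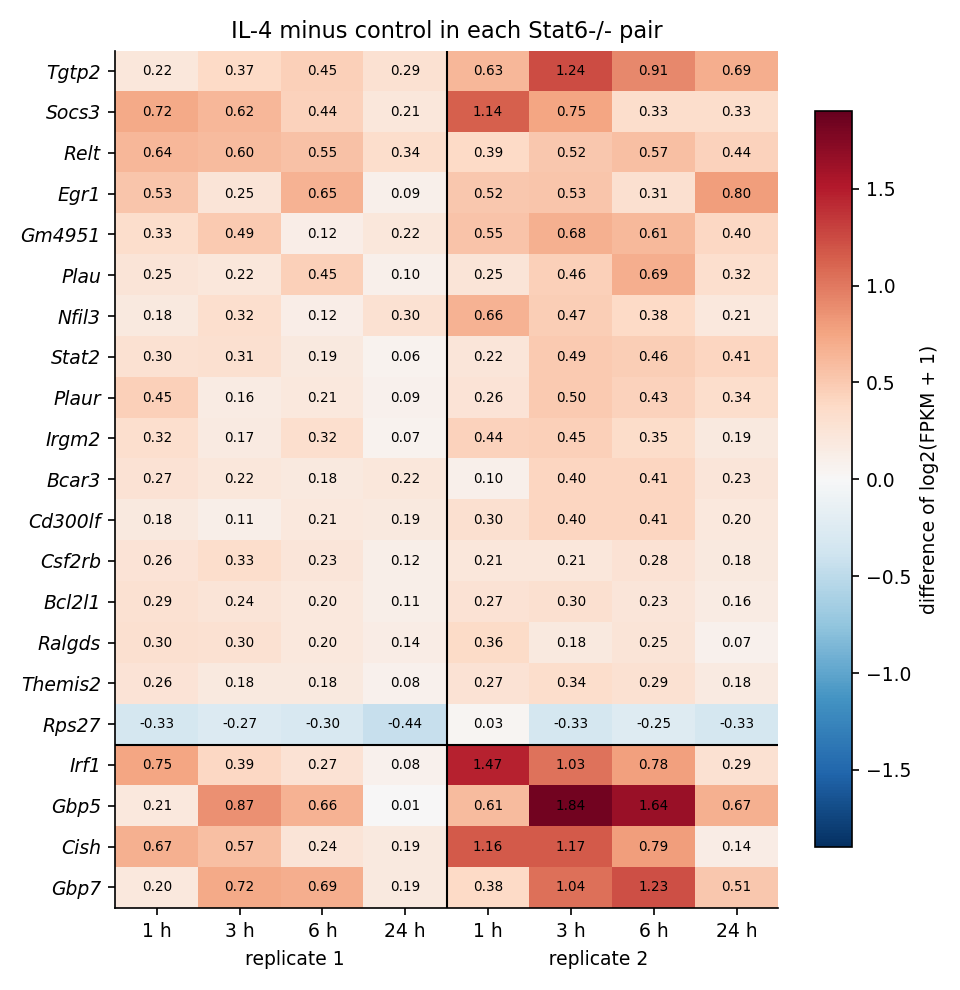
Difference of log2(FPKM + 1) between IL-4 and control in each of the 8 Stat6-/- pairs, by replicate and time, for the 17 called loci (above the line) and for Irf1, Gbp5, Cish and Gbp7, which did not pass. Colour runs from blue (lower with IL-4) to red (higher), and each cell prints its value; all called loci except Rps27 are red in every column, and the deepest cells are those of Gbp5 in replicate 2 at 3 and 6 h (1.84 and 1.64).

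The increase with the smallest adjusted p was in Relt (chromosome 7, 100845848 to 100863413), which encodes a receptor of the TNF receptor superfamily. In replicate 1, Relt went from 2.65 to 4.67 FPKM (1 h), 2.56 to 4.39 (3 h), 2.77 to 4.52 (6 h) and 1.67 to 2.38 (24 h). In replicate 2, Relt went from 4.95 to 6.77, from 4.3 to 6.59, from 3.96 to 6.38 and from 5.1 to 7.27 FPKM at the same times. Every IL-4 sample therefore lay above its own control, although IL-4 samples of replicate 1 overlapped controls of replicate 2. The mean change was 0.50 (SE 0.04, limma adjusted p 0.000271). Relt responded alike in both replicates, by 0.53 and 0.48, and it was called in 25 of the 28 other settings tried, the most of the 17 loci.

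The remaining increases included genes of several functions. Csf2rb encodes the shared beta chain of the receptors for GM-CSF, IL-3 and IL-5, and Bcl2l1 encodes the survival factor BCL-XL. Csf2rb (15, 78325990 to 78351001) rose by 0.23 (SE 0.03, limma adjusted p 0.0147), from 83.4 ± 10.6 to 98.1 ± 8.49 FPKM in replicate 1 and from 60.7 ± 3.55 to 71 ± 3.67 FPKM in replicate 2 (SD over the 4 times). Bcl2l1 (2, 152780668 to 152831682) rose by 0.22 with the same SE and adjusted p. Both kept an increase in every pair, from about 0.11 to about 0.33. Plau, the urokinase-type plasminogen activator, and Plaur, its receptor, rose together by 0.34 and 0.30. The transcription factors Egr1, an immediate early gene, and Nfil3, a bZIP repressor, rose by 0.46 and 0.33. Cd300lf, a receptor of myeloid cells, the adaptor Bcar3, the exchange factor Ralgds and the signalling protein Themis2 rose by 0.22 to 0.25. Csf2rb, Themis2 and Ralgds were named after their values were seen.

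Among the receptor, its kinases and the STAT family, 1 of 14 tested members was called, against 0.148% of all loci for increases. This was Stat2 (10, 128270576 to 128292849), a factor of type I interferon signalling, which rose by 0.31 (SE 0.05, limma adjusted p 0.0279). Stat2 lay between 16.03 and 84.95 FPKM in the 8 controls, with a median of 29.05, and between 16.8 and 119.8 FPKM in the 8 IL-4 samples, with a median of 37.9. The groups overlapped, replicate 2 was higher than replicate 1 throughout, and every IL-4 sample lay above its own control. Stat3 was higher in 8 of 8 pairs (0.13, adjusted p 0.061). Il4ra, the IL-4-binding chain, differed by 0.33 (adjusted p 0.094) and Jak3 by 0.23 (adjusted p 0.060). Stat5a and Stat5b differed by 0.10 and 0.06, and Jak1, the shared gamma chain Il2rg and Stat6 itself by less than 0.02. The median of the 14 was 0.09, beside 0.002 over all tested loci. This list was chosen with earlier results known, so its count and median are not independent evidence.

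STAT5 targets held 2 of the called genes among 8 tested of 11 listed, Bcl2l1 and Socs3, where 0.148% of all loci were called as higher. The list was chosen with earlier results known, so this count is not independent evidence. Socs3 (11, 117966087 to 117969366), which encodes an inhibitor of gp130 and other cytokine receptors, is also a textbook STAT3 target. Its level in replicate 1 went from 1.55 to 3.21 FPKM (1 h), 1.96 to 3.55 (3 h), 1.59 to 2.52 (6 h) and 0.84 to 1.13 (24 h). In replicate 2, Socs3 went from 8.94 to 20.9, from 6.33 to 11.4, from 6.3 to 8.2 and from 4.14 to 5.48 FPKM. The difference was thus largest at 1 h in both replicates, with a pooled change of 0.57 (SE 0.09, limma adjusted p 0.0279). Cish, the inhibitor that STAT5 induces, was low in all 8 controls (0.126 to 0.898 FPKM) and lay between 0.645 and 2.11 FPKM in the 8 IL-4 samples. It was higher in 8 of 8 pairs by 0.62 (SE 0.12) and did not pass (adjusted p 0.061). Only IL-4 samples brought Cish to the 1 FPKM needed for testing, so its direction is not independent of that filter. Pim1, a survival kinase, and Cdkn1a were also higher in 8 of 8 pairs (0.30 and 0.13) without passing, while Bcl6, a repressor that STAT5 opposes, was lower in 7 of 8 (-0.29, adjusted p 0.118). Among the 9 STAT3 targets, Socs3 alone was called, beside the same 0.148%, and Mcl1 and Hif1a differed by less than 0.02.

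The start regions of 5 genes, of which Irf1, Cish and Gbp5 were not called, were picked because their letters hold the spaced palindrome TTCNNNGAA. STAT dimers other than STAT6 typically bind this form, whereas STAT6 favours TTC and GAA parted by 4 bases. Sequences are from RefSeq (GRCm38.p6) and run 5′ to 3′ on the gene's strand from 250 bases before the start site to 30 bases after it, with matches to TTCNNNGAA in capitals.
Irf1, chr11:53769764-53770043, plus strand: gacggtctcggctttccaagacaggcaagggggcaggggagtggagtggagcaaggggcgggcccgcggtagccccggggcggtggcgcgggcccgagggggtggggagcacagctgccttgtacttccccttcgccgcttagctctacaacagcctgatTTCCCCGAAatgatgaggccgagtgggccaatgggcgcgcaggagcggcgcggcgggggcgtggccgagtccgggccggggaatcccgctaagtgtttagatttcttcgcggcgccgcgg
Socs3, chr11:117969337-117969616, minus strand: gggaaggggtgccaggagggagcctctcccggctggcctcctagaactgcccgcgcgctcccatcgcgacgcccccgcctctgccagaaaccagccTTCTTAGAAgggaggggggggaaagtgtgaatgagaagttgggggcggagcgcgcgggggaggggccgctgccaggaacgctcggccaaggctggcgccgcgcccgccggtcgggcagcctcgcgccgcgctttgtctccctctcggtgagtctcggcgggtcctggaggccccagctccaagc
Cish, chr9:107296409-107296688, plus strand: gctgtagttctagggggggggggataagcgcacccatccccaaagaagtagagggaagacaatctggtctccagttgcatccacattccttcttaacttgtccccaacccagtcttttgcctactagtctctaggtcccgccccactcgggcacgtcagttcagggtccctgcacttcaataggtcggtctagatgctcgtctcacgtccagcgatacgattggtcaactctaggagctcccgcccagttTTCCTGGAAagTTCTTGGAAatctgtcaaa
Gbp5, chr3:142496684-142496963, plus strand: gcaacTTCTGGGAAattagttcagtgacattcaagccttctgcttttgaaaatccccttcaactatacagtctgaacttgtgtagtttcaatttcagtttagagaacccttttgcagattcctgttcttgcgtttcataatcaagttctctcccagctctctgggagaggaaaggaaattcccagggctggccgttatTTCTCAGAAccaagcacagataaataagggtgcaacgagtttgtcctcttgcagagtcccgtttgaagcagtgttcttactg
Irgm2, chr11:58214727-58215006, plus strand: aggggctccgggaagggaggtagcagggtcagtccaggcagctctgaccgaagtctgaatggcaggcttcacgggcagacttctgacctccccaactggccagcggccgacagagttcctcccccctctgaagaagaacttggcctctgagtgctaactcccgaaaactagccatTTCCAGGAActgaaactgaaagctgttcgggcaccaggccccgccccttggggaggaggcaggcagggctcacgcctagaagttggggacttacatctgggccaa
The match began 90 bases before the start site in Irf1, 154 in Socs3, 75 in Irgm2 and 245 and 52 in Gbp5, and Cish held 2 matches beginning at and 11 bases after it. Both palindromes read the same on either strand. Over windows of 300 bases, TTCNNNGAA was present in 8.3% of 32851 RefSeq start regions and the STAT6 form in 6.95%. Of the 17 called loci, 13 had a start region in the reference used, of which 4 held TTCNNNGAA (Socs3, Irgm2, Tgtp2 and Themis2) and 1 held the STAT6 form (Stat2). The letters of an interferon-response element (GAAA, any 2 bases, GAAA), searched on both strands, were in 3 of the 13 (Stat2, Irgm2 and Tgtp2), against 3.44% of all. Relt, Bcl2l1, Plaur, Cd300lf, Nfil3, Bcar3, Ralgds and Rps27 held none of the 3 motifs in this window. Such matches describe letters and were not measured as binding sites. For Socs3 and Irgm2 among the 5 shown, the 30 bases after the start site were not found whole in a reference transcript, so their start sites are less certain.

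Irf1 and Gbp5 mark the residual response and were higher with IL-4 in 8 of 8 pairs, although neither passed in the pooled fit. Irf1 (11, 53770014 to 53778374), a transcription factor induced by interferons, in replicate 1 went from 52.8 to 89.5 FPKM (1 h), 42.6 to 56.2 (3 h), 46.8 to 56.7 (6 h) and 47.3 to 50.2 (24 h). In replicate 2, Irf1 went from 68.8 to 192, from 63.8 to 131, from 56.5 to 97.7 and from 55 to 67.4 FPKM. IL-4 samples at 1 h were the highest of both replicates, and those at 24 h overlapped the controls. The pooled change of Irf1 was 0.63 (SE 0.13, limma adjusted p 0.074), with an exact sign-flip p over the 8 pairs of 0.00781, the smallest that these pairs allow. Of 88 named genes tested, 31 reached this smallest value. The sign-flip test treats the 8 pairs as separate units, although they come from 2 replicate numbers, so it does not measure the spread between animals. By time, Irf1 differed by 1.11, 0.71, 0.53 and 0.19. Irf2, Irf3, Irf4, Irf5, Irf7, Irf8 and Irf9, the remaining family members tested, each differed by less than 0.10.

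**Figure D2:**
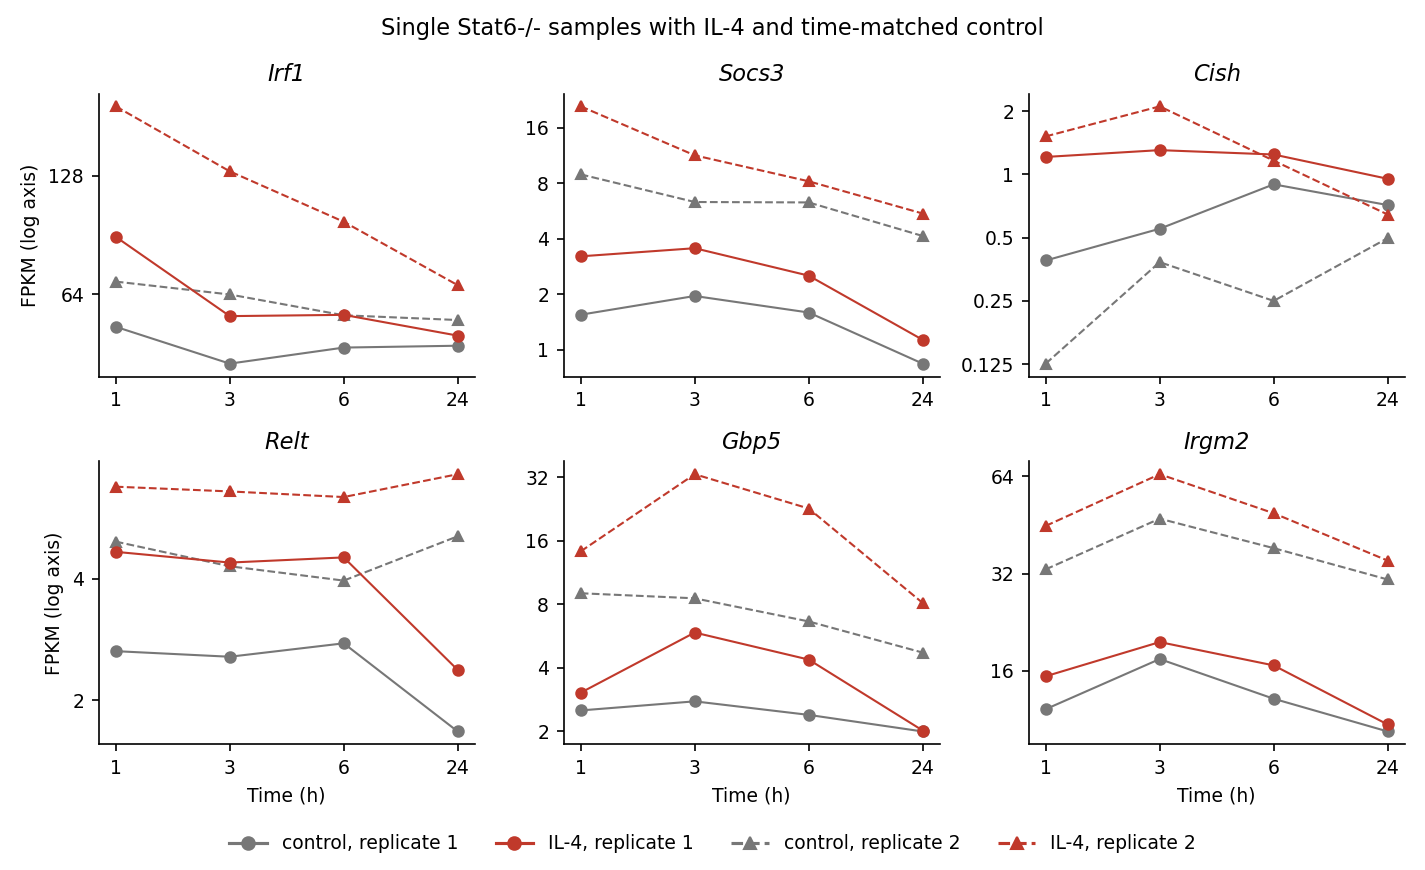
FPKM of 6 genes (log axis) against time in hours (evenly spaced, not to scale) for every Stat6-/- sample with IL-4 (red) and its time-matched control (grey); circles with solid lines are replicate 1 and triangles with dashed lines replicate 2. IL-4 samples lie above their own control at each time, and replicate 2 lies above replicate 1 of the same treatment in Irf1, Socs3, Relt, Gbp5 and Irgm2.

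The guanylate-binding proteins and immunity-related GTPases, interferon-inducible proteins that attack vacuoles of intracellular pathogens, moved together. Of 20 listed members, 19 were tested, and all 19 had a pooled change above 0, where 51.4% of all tested loci did. Of these 19, 17 were higher in 8 of 8 pairs, a pattern seen in 2.09% of all loci. Changes ranged from 0.255 in Gbp9 to 0.813 in Gbp5, with a median of 0.47, beside 0.002 over all loci. The list was chosen with earlier results known, so that its direction is not independent evidence. Gbp11 was tested only because of its IL-4 samples, at no more than 0.432 FPKM in controls and up to 1.35 FPKM with IL-4. The called members were Irgm2 (0.29, SE 0.04, limma adjusted p 0.0279), Tgtp2 (0.60, SE 0.10, 0.0378) and Gm4951 (0.42, SE 0.06, 0.0279). Tgtp2 shares 86.6% of its 50-base sequences with Tgtp1 or other genes, so reads of the 2 copies may have been split uncertainly, and Tgtp1 itself differed by 0.53 (adjusted p 0.098).

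Irgm2 (11, 58214977 to 58222783) lay between 10.4 and 17.4 FPKM in replicate 1 controls and between 10.9 and 19.7 with IL-4, and between 30.7 and 47.4 in replicate 2 controls and 35.1 and 65 with IL-4. Levels therefore overlapped within each replicate, and the difference appeared only against the matched control. Gbp5 (3, 142496934 to 142522344) in replicate 1 went from 2.51 to 3.05 FPKM (1 h), 2.77 to 5.88 (3 h), 2.39 to 4.37 (6 h) and 1.99 to 2.01 (24 h). In replicate 2, Gbp5 went from 9.03 to 14.3, from 8.54 to 33.2, from 6.63 to 22.8 and from 4.72 to 8.12 FPKM. The pooled change of Gbp5 was 0.81 (SE 0.18, limma adjusted p 0.094), with an exact sign-flip p of 0.00781 under the same limit as for Irf1. Its largest differences were at 3 h (1.35) and 6 h (1.15), later than those of Irf1 and Socs3. Over the list, the median was 0.256, 0.599, 0.633 and 0.341 from 1 to 24 h. Gbp2 differed by -0.03 at 1 h and by 1.10 at 6 h.

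Other interferon targets were higher by smaller amounts. All 24 tested targets of interferon-gamma (26 listed) had a pooled change above 0 (51.4% of all tested loci did), with a median of 0.238 and 0 called. In 8 of 8 pairs, 8 of them were higher (2.09% of all loci). Cxcl10, a chemokine for T cells, differed most (0.83, SE 0.20, limma adjusted p 0.111), followed by Gbp5 and Irf1. Tap1, which loads peptides onto MHC class I, differed by 0.28, Cd274, the PD-1 ligand, by 0.19, and Cxcl9 by 0.01. The immunoproteasome genes Psmb8, Psmb9 and Psmb10 differed by 0.10, 0.19 and 0.21. Of 30 type I interferon-stimulated genes, all tested, every one had a change above 0 (51.4% of all tested loci), with a median of 0.133. In 8 of 8 pairs, 4 were higher (2.09% of all loci). Stat2 alone was called among these 30 genes (0.148% of all loci were called as higher). Mx1 and Ifit3 differed by 0.24 and 0.20, and Irf7, the most abundant transcription factor of the list, by 0.08.

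**Figure D3:**
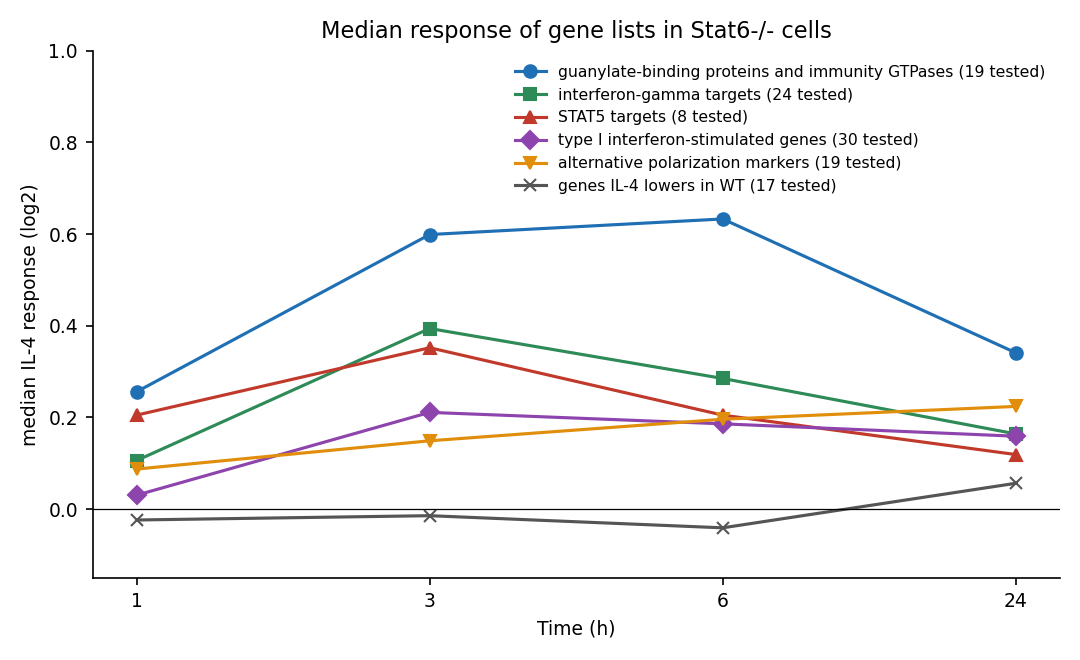
Median IL-4 response (difference of log2(FPKM + 1), y axis) of 6 gene lists at each time in hours (x axis, evenly spaced) in Stat6-/- BMDMs, over the tested members given in the key. The GTPases peak at 3 and 6 h (0.599 and 0.633), and the genes that IL-4 lowers in WT stay between -0.0409 and 0.0563.

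Tested at single times, the response gave no calls. At 1, 3, 6 and 24 h, limma called 0 loci each (0%), with the smallest adjusted p-values at 0.0678, 0.227, 0.149 and 0.149, and 595 (5.49%), 1176 (10.8%), 821 (7.57%) and 385 (3.55%) had an unadjusted p under 0.05. Each of these tests rests on 2 pairs and 4 residual degrees of freedom. The closest at 1 h was Socs3, at 0.93 (SE 0.10). A test of change over time also called 0 loci (0%), with 420 (3.87%) at an unadjusted p under 0.05 and the smallest adjusted p at 0.945. Socs3 differed by 0.93, 0.69, 0.39 and 0.27 at 1, 3, 6 and 24 h (unadjusted p of the change 0.00431), and Cish by 0.92, 0.87, 0.52 and 0.16. Relt differed by 0.51, 0.56, 0.56 and 0.39. Among loci with a symbol of their own, those of smallest p for a change over time were Rplp2, Ly6a and Mir703, none of which passed.

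The 2 replicates stood apart both in their controls and in their response. In 97 of 10761 loci with a symbol of their own (0.901%), every replicate 2 control was at least 2-fold above every replicate 1 control, and in 86 (0.799%) the reverse held. Among the GTPases the first pattern was found in 9 of 19 tested members. Tgtp2 averaged 3.07 ± 1 FPKM in replicate 1 controls and 34.2 ± 14 FPKM in replicate 2 controls (SD over 4 times each). The chemokine Ccl7 averaged 0.944 ± 0.129 and 45.3 ± 30.5 FPKM, and the acute-phase gene Saa3 93.9 ± 46.3 and 1417 ± 870 FPKM. The same order was present at 0 h, where Ccl7 was at 1.74 and 74 FPKM and Gbp5 at 4.02 and 10.9 FPKM.

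The IL-4 response was larger in replicate 2 for interferon targets and chemokines. With a term for each replicate in the same fit, added after these values were seen, 2 loci were called in replicate 1 (0.0184%) and 102 in replicate 2 (0.941%), of which 95 were higher (0.876%) and 7 lower (0.0646%) with IL-4, and 8 (0.0738%) had a change of at least 1. The calls in replicate 1 were Relt (0.53), the single increase (0.00922%), and Saa3, which fell by 0.52. Replicate 2 called 15 of the 19 tested GTPases as higher, among them Iigp1 (1.18), Gbp4 (1.05), Tgtp1 (0.88) and Ifi47 (0.71), with a list median of 0.655 against 0.205 in replicate 1. Also called in replicate 2 were Irf1 (0.89), Cish (0.81), Socs1 (1.02), Il4ra (0.50) and the chemokines Ccl2 (1.23), Ccl7 (1.61), Ccl12 (1.62) and Cxcl10 (1.38). The difference between the replicates itself was called for 4 loci (0.0369%): Ccl2 (0.95, SE 0.09, limma adjusted p 0.00936), Ccl7 (1.22, SE 0.16, 0.0363) and Saa3 (0.67, SE 0.09, 0.0363) were higher in replicate 2 (0.0277%) and Gm11711 was lower. For Irf1 and Gbp5 the difference did not pass (adjusted p 0.599 each).

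A pseudocount of 1 FPKM compresses changes of the low replicate 1 levels, so plain ratios and a smaller pseudocount were read beside it. As plain ratios of IL-4 to control, Ccl2 ranged from 1.11 to 1.46 in replicate 1 and was at least 2.12 in replicate 2, Iigp1 ranged from 1.17 to 1.8 and was at least 1.91, and Tgtp2 ranged from 1.21 to 1.51 and was at least 1.56. Socs3 ranged from 1.35 to 2.07 in replicate 1 and from 1.3 to 2.34 in replicate 2. With a pseudocount of 0.1 FPKM, the replicates differed by -0.01 in Socs3 (SE 0.19), by 0.11 in Gm4951 (SE 0.11) and by 0.04 in Egr1 (SE 0.22), whereas Gbp5 still differed by 0.74 (SE 0.31) and Iigp1 by 0.70 (SE 0.15), neither of which passed. Ccl7 then differed by 1.02 (SE 0.21) and no longer passed (limma adjusted p 0.613), while Ccl2 (0.93, 0.0139) and Saa3 (0.68, 0.0374) did. Ccl2, Ccl7, Ccl12, Cxcl10, Socs1, Iigp1, Gbp4, Saa3 and Gm11711 were named after their values were seen.

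**Figure D4:**
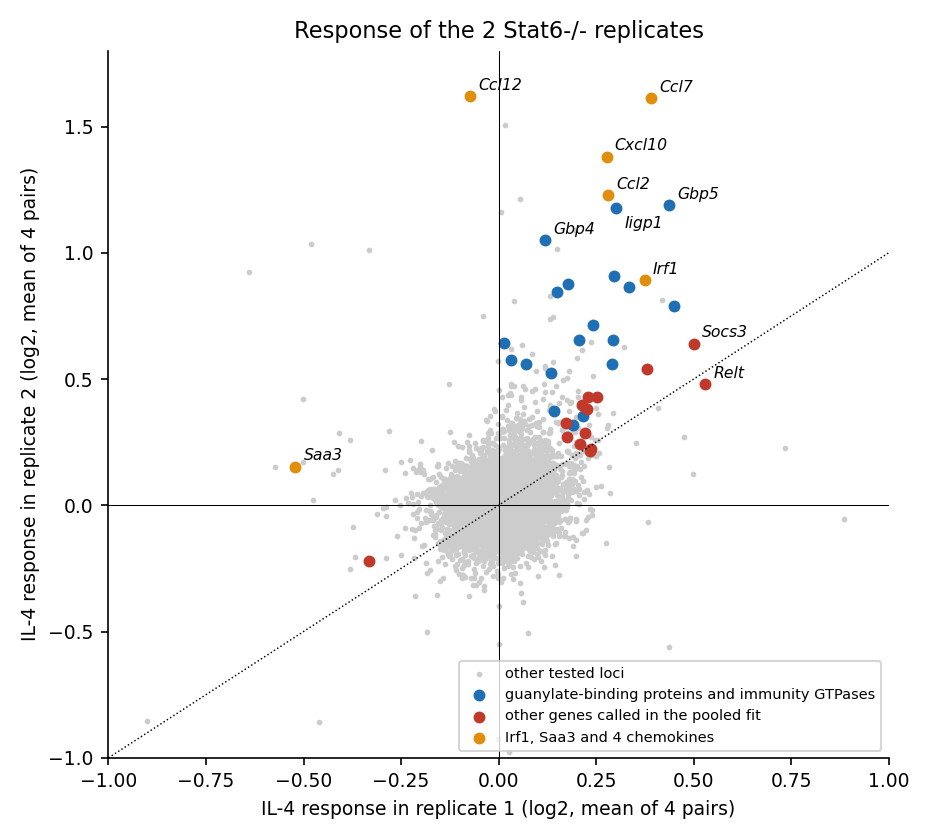
IL-4 response of replicate 2 (y axis) against that of replicate 1 (x axis), each the mean of 4 Stat6-/- pairs on the log2(FPKM + 1) scale, for all tested loci with a symbol of their own except 16 outside the plotted range; the dotted line marks equal responses. All 19 GTPases lie above the line, while Relt (0.53 and 0.48) lies just below it.

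Marker lists of macrophages and of other cells that the cultures could hold were read in the same samples. All 8 macrophage markers were tested, 0 were called, and their summed level was 18646 to 23630 FPKM in controls and 19322 to 21170 FPKM with IL-4 in replicate 1, and 14117 to 17600 and 14231 to 17328 FPKM in replicate 2. Macrophage marker sums thus overlapped between IL-4 and control but not between the replicates. Most of each sum was Lyz2, at 15050 to 19680 FPKM in replicate 1 controls and 10150 to 12870 FPKM in replicate 2 controls. Itgam (230.6 to 257 and 320.6 to 553.4 FPKM) and Fcgr1 (53.96 to 104.5 and 223.1 to 480.5 FPKM) were instead higher in replicate 2 controls. Control ranges of Csf1r, Emr1, Cd68, Mertk and Sfpi1 overlapped between the replicates. Of 10 T and NK cell markers, 9 stayed under 1 FPKM in all 16 samples, Ifng, the interferon-gamma gene, among them. The sum of the 10 was 9.41 to 12.9 FPKM in replicate 1 controls, 9.11 to 12.9 with IL-4, 7.78 to 9.75 in replicate 2 controls and 7.18 to 9.29 with IL-4, and most of it was Cd4. B cell markers summed to 3.46 to 8.31 and 5.29 to 8.05 FPKM in controls and IL-4 samples of replicate 1, and 7.49 to 13.9 and 6.8 to 10.4 FPKM in replicate 2. Neutrophil markers (7 of 8 analysed) summed to 597 to 1088 FPKM in controls and 611 to 919 FPKM with IL-4, and 0 of these 7 were called. The 4 dendritic cell markers summed to 1.48 to 1.99 FPKM in replicate 1 controls, 1.48 to 3.69 with IL-4, 3.6 to 6.27 in replicate 2 controls and 4.32 to 7.22 with IL-4. Mast cell and basophil markers summed to at most 2.59 FPKM, with Mcpt4 at 0 in all 16 samples, and stroma and erythroid markers to at most 0.636 and 0.0727 FPKM. Dendritic cell sums of controls did not overlap between the replicates either, while B cell sums did. The dendritic cell difference came from Ccr7, at 0.7873 to 1.543 FPKM in replicate 1 controls and 3.216 to 5.634 FPKM in replicate 2 controls. Control ranges of Flt3, Zbtb46 and Itgae overlapped between the replicates. The part of these levels in the replicate difference was not tested, and fewer cells of a type and less RNA per cell cannot be told apart in these bulk samples.

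Markers of alternative polarization, the program that IL-4 drives through STAT6, gave no calls in the pooled fit. Of 29 listed, 19 were tested and 18 had a pooled change above 0 (51.4% of all tested loci did), with a median of 0.152 against 1.94 in WT. In 8 of 8 pairs, 3 of the 19 were higher (2.09% of all loci). In replicate 2 all 19 were above 0 and 3 were called as higher (0.876% of all loci), with a median of 0.235 against 0.0725 in replicate 1. Retnla, a secreted marker, lay under 1 FPKM on average and differed by 0.18 (SE 0.19), Chi3l3 by -0.01 and the mannose receptor Mrc1 by 0.11. Clec10a (0.29) and Ccl7 (1.00) were higher in 8 of 8 pairs without passing (adjusted p 0.111 and 0.061). In WT, 18 of the 19 rose (33.4% of all loci did), and the response of 18 was larger in WT than in Stat6-/- (24.3% of all loci). The 17 tested genes that IL-4 lowers in WT had a median of -0.02 in Stat6-/- and -1.76 in WT, with 0 called in Stat6-/-. Those WT medians describe lists partly chosen on these WT samples. Among NF-kB targets, 0 of 18 tested were called, although Tnf and Ccl4 were higher in 8 of 8 pairs (0.21 and 0.30, adjusted p 0.061 each). Of 23 tested immediate early and MAPK feedback genes, Egr1 alone was called, and Myc, Dusp6, Spry2 and Egr2 were higher in 8 of 8 pairs by 0.18 to 0.30.

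Genes of the IRS2, PI3K and AKT branch did not pass either. Of 19 tested, 0 were called, and the median was -0.03. Ccng2, a cell cycle inhibitor controlled by FOXO, was lower in 8 of 8 pairs (-0.16, adjusted p 0.127), Irs2 differed by -0.04, and Akt1 by 0.05. Among 19 cholesterol synthesis genes 0 were called (median 0.102), and Srebf2, which encodes the regulator of this pathway, was higher in 8 of 8 pairs (0.15, adjusted p 0.094). Calls were also 0 among the 13 tested amino acid stress genes, 18 cell cycle genes and 9 genes of MHC class II presentation, whose medians were 0.066, 0.02 and 0.102.

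The residual response was next compared with that of WT in one fit of 46 paired samples. In WT, 7949 loci (73.3%) were called, and over all loci 6027 (55.6%) had a response that differed between genotypes, so a difference in a single gene is common. All 16 genes that rose in Stat6-/- differed between the genotypes, 8 with a larger response in WT and 8 with a smaller one. They were picked on the same Stat6-/- pairs that enter this comparison, so their share cannot be read against that of all loci. The first 8 were Nfil3 (2.94 in WT), Bcar3 (1.84), Ralgds (1.33), Csf2rb (0.93), Egr1, Plau, Cd300lf and Themis2. The second 8 were Tgtp2 (-0.20 in WT), Socs3 (-0.00), Irgm2 (-0.27), Relt (0.12), Plaur (-0.01), Stat2 (0.02), Bcl2l1 (-0.04) and Gm4951 (0.20). Irf1 responded by 0.86 (SE 0.06) in WT, and the difference of 0.23 from Stat6-/- did not pass (SE 0.10, limma adjusted p 0.075). Cish responded by 4.34 in WT, against 0.62 in Stat6-/-.

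**Figure D5:**
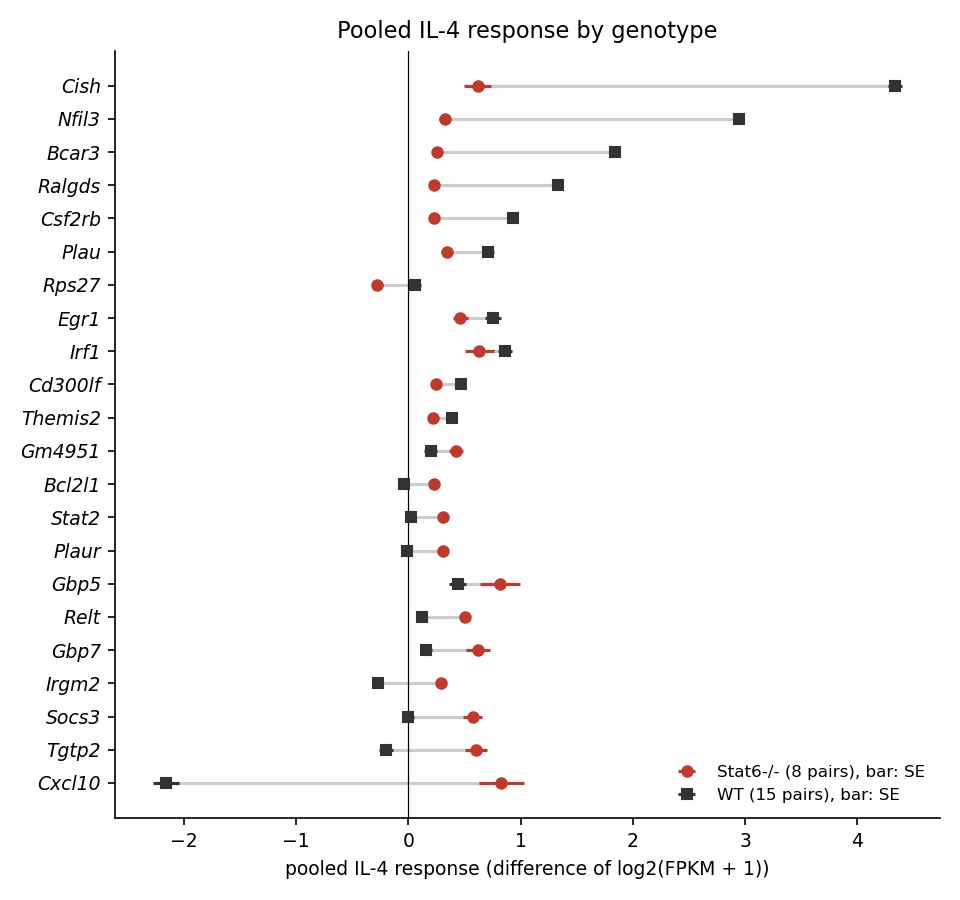
Pooled IL-4 response (x axis, difference of log2(FPKM + 1)) in Stat6-/- (red circles, 8 pairs) and WT (black squares, 15 pairs) for the called loci and for Irf1, Gbp5, Cish, Gbp7 and Cxcl10; bars show SE. Cxcl10 moved in opposite directions (0.83 and -2.16), while Irf1 had neighbouring values (0.63 and 0.86).

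Most GTPases and type I interferon-stimulated genes had a lower pooled response in WT, whereas interferon-gamma targets were mixed. Of the 19 GTPases, 15 responded less in WT than in Stat6-/- (31.3% of all loci) and 0 more. The median of these 19 was 0.205 in replicate 1 and 0.655 in replicate 2 of Stat6-/-, beside 0.0406 in WT. Their count was not repeated for each replicate. Of the 30 type I interferon-stimulated genes 29 responded less in WT, and 28 fell in WT (39.9% of all loci). Across the 24 targets of interferon-gamma, 13 responded less in WT, 4 more and 7 did not pass. Pooling the times hides opposite changes in WT. Gbp5 in WT had medians of 5.2 FPKM in controls and 10.3 FPKM with IL-4 (1 h), 4.7 and 12.6 (3 h), 4.24 and 8.54 (6 h), and 3.28 and 0.802 (24 h). Socs3 in WT had medians of 1.34 and 3.19 FPKM at 1 h but 1.34 and 0.4 FPKM at 24 h, and Relt 2.16 and 3.92 FPKM at 3 h but 2.04 and 0.957 FPKM at 24 h. In Stat6-/- none of these fell below its control at 24 h in either replicate. Irgm2 at 24 h was likewise at 18.7 and 5.24 FPKM in WT (medians), and at 10.4 and 10.9 FPKM in replicate 1 and 30.7 and 35.1 FPKM in replicate 2 of Stat6-/-.

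Decreases were scarce. Rps27, which encodes a small-subunit ribosomal protein, was lower in 7 of 8 pairs and fell by 0.28 (SE 0.05, limma adjusted p 0.0437). It lay between 2.21 and 3.86 FPKM in controls and between 1.67 and 3.34 FPKM with IL-4, and 25% of its 50-base sequences are shared with other genes, so its value is uncertain. No decrease in 8 of 8 pairs was called. Among the decreases of smallest p, Sh3bgrl2, Ppih and Pcmtd2 were lower in 8 of 8 pairs by 0.14 to 0.16, and Cxcr4, a chemokine receptor, in 7 of 8 by 0.34, and none of these passed.

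The genes whose 8 pair differences were most like those of Irf1 were Tspan17 (Pearson r 0.954 over 8 pairs), Cish (0.937), Irf8 (0.929), Fuz (0.921) and Trappc4 (0.912). These pairs share 2 replicates and 4 times, and the values are descriptions without a test.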

How the data were processed

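Poly-A RNA of BMDMs was sequenced by the authors as paired reads. Per the submitters' processing notes, reads were aligned to mm10 with TopHat2 2.0.7, and FPKM values per locus were made with Cufflinks 2.0.2 and deposited as 1 file per sample. FPKM holds no read counts, so no count model was used and absolute depth is unknown. Relative depth was estimated from the step between low values, with 97.4% of pairwise ratios within 2% of one depth per sample. It limits low genes most, and samples differed up to 1.56-fold within a pair.

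The 16 Stat6-/- samples were tested on log2(FPKM + 1) with limma 3.58.1 (R 4.3.3, two-sided, intensity trend, Benjamini-Hochberg over 10841 loci), with 8 pairs as a block. Samples of the same number deviated together (r of control with IL-4 deviations 0.881, 0.791, 0.856 and 0.9 at 1, 3, 6 and 24 h), although the sources do not say that a number marks one animal in Stat6-/-, so p-values measure the spread between these samples, which may be technical. Time terms, replicate terms, and WT against Stat6-/- (46 samples, 23 pairs) were further fits. The replicate terms were added after the data were seen. The WT 24 h control of replicate 1 had no partner analysed here. On simulated data, the pooled fit recovered 95.5% of 67 loci changed by 0.3 on the log2 scale and 100% of those changed by 0.6. The changed loci were drawn without the most variable ones and changed alike in all 8 pairs. Recovery of responses that vary by time or replicate, like those of Irf1 and Gbp5, was not tested. No 2 samples held identical values.

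Genes named are Stat6, Irf1 and Gbp5, called loci (the 12 largest per direction in 8 of 8 pairs), list members called or of highest level, loci of smallest p per time and for change over time, and the 5 loci most like Irf1. Other list members serve as examples and were chosen after their values were seen. All members and lists were chosen with earlier results of these data known. Alternatives were pseudocount, filter, scaling, block, weights, samples in the fit, and left-out pairs, times and replicates. Positions are mm10 as in the files. Values of a few list members are not reported here.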

Additional observations from a re-analysis of the deposited data

Results flagged for a closer look

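In Rps27, the pair of replicate 2 at 1 h stood apart from the other 7, with a difference of 0.03 where the others were lower with IL-4. Its gap was 0.589 of the whole range, above the 95% critical value of Dixon for 8 values. Among 19 genes checked for such a sample, chance gives about 1 in 20.

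The pooled IL-4 response differed between the genotypes (limma with Benjamini-Hochberg adjustment, 15 WT and 8 Stat6-/- pairs) for 18 of the 19 genes checked, against 55.6% of all loci. As WT minus Stat6-/-, it was larger in WT for 9: Nfil3 by 2.61, Bcar3 by 1.59, Ralgds by 1.11, Csf2rb by 0.70, Plau by 0.37, Rps27 by 0.33, Egr1 by 0.29, Cd300lf by 0.22 and Themis2 by 0.16. It was smaller in WT for the other 9, with values of -0.80 in Tgtp2, -0.57 in Socs3, -0.56 in Irgm2, -0.38 in Relt, -0.37 in Gbp5, -0.32 in Plaur, -0.29 in Stat2, -0.26 in Bcl2l1 and -0.23 in Gm4951. Adjusted p-values ran from 7.74e-17 in Nfil3 to 0.049 in Gm4951. Gm4951 and Egr1 (adjusted p 0.0475) were nearest to the threshold. The called loci among these 19 were picked on the same Stat6-/- pairs that enter this difference, so 18 of 19 cannot be read against 55.6%.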

How the results depend on the processing

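The count of 17 called loci depended on the processing, while none of the 17 changed direction under the settings run. With all 17 still called, it was 36 at a pseudocount of 0.1 FPKM and 46 without the loci of small RNAs, a setting chosen after seeing the data. It stayed near 17 with the filter on the mean (19), quantile normalization (20), median-of-ratios scaling (17) and without the intensity trend (17). It was 3 with no filter on low values, 41 with sample quality weights and 116 with all 46 paired samples in one fit. The cause was not tested.

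The replicate block decided the calls: 0 loci were called with no replicate block, 0 with an additive block of time and replicate number, and 4 with the replicate number as the unit, of which 2 were among the 17. Own terms for the replicates, chosen after seeing the data, called 2 and 102 loci. Leaving out replicate 1 gave 7, of which 2 were among the 17, and leaving out replicate 2 gave 0. Leaving out single pairs gave 1 to 28, with 1 to 15 of the 17 kept. Counts were 1, 1, 1 and 11 without the 1, 3, 6 or 24 h pairs, and fewer pairs leave fewer degrees of freedom. Single times called 0 loci except 1 at 1 h with a pseudocount of 0.1 FPKM and 1 at 24 h with quantile normalization. The genotype difference was called for 3361 loci with no replicate block and for 4578 to 6150 when a replicate was left out. Over 31 genes followed through these settings, the 17 among them, 550 results kept their side of the threshold, 271 lost it and 46 gained it. The change over time could not be fitted without a replicate.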

Other observations

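The MHC class II presentation genes were all slightly higher with IL-4 in Stat6-/- BMDMs, where 51.4% of all tested loci had a pooled change above 0. Of these 9 genes, 0 were called by limma. Cd74, the invariant chain, and H2-DMa, a peptide exchange factor, were higher in 8 of 8 pairs (0.15 and 0.19, adjusted p 0.138 and 0.113). The list median was 0.0698, 0.129, -0.00674 and 0.224 over the times from 1 to 24 h. Cholesterol synthesis genes, which SREBP2 drives, had list medians of 0.0126, 0.105, 0.187 and 0.194 over the same times. Their median was 0.0245 in replicate 1 and 0.219 in replicate 2. In WT all 19 of them rose (33.4% of all loci did), with a median of 0.37.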
